A study of Mus musculus with 8 samples.

Results

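The regions described here were called as H3K4me3 regions in both testis libraries of mice null for H3f3b and in at most 1 of those of wild-type mice. They were selected on their presence in 4 deposited region lists, 1 list per H3K4me3 ChIP-seq library. Regions of chromosomes 1 to 19 that overlapped or touched were merged into union regions, and a union region was kept if it was covered by at least 1 bp in both null libraries (KO67 and KO73) and in at most 1 of the wild-type libraries (WT66 and WT74). The rule found 252 of 16000 union regions. Of these, 51 were in neither wild-type list, 119 were in WT66 and not WT74, and 82 were in WT74 and not WT66.

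All libraries came from whole testis tissue of adult C57BL/6 mice. WT66 and WT74 are labelled H3f3b WT/WT and the null libraries H3f3b null. The labels do not say how the null allele was made, whether it acts in all cells, or whether each number is a separate mouse, so a difference between libraries of 1 genotype may be technical. The 4 input libraries of the series were not analysed here.

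H3K4me3 is the trimethylated form of lysine 4 on histone H3. It is laid down by SET1 and MLL family complexes, mainly at CpG-rich promoters of active or poised genes. In the testis it changes as spermatogonia enter meiosis and become spermatids, and in meiotic prophase the methyltransferase PRDM9 also places it at sites of recombination away from promoters. The product of H3f3b is H3.3, a histone variant that enters chromatin outside DNA replication and that builds up on the sex chromosomes and at active genes during spermatogenesis. A testis is a mixture of germ cells and somatic cells, so that a change in the number of cells of a type and a change of the mark within cells cannot be told apart. Neither cell type markers nor H3f3b itself was examined, because the gene tables used here are of GRCm38 while the regions are placed on mm9. Regions are therefore named by their mm9 positions, and neither gene names nor sequences are given for them.

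The lists held 13686 autosomal regions in WT66, 14134 in WT74, 10241 in KO67 and 12141 in KO73. Each region has a score from the authors' tool. A percentile below is the score rank of a region within its own list, from 0 for the weakest to 100 for the strongest. The lowest scores were 20.1, 20.9, 20.2 and 20.3 in the same order, and no region was narrower than 501 bp. The scores are whole multiples of a step that differs between the libraries. If a step is 1 tag, which is not stated, KO67 was 4.46 times as deep as KO73, WT66 1.66 times and WT74 1.04 times, and the weakest regions stood for 62 steps in KO67 and from 14 to 23 in the other lists. The absolute depth is unknown. A region that is absent from a list was not called there, which does not show that the mark was absent.

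Null-favouring regions were rare beside their counterparts in wild type. They made up 1.57% of all autosomal union regions, and those in neither wild-type list 0.319%. Regions in both wild-type lists and at most 1 null list numbered 2706, or 16.9%. Of the 9772 regions in both null lists, 2.58% lacked a wild-type library (95% exact binomial interval 2.27 to 2.91), and of the 12226 regions in both wild-type lists, 22.1% lacked a null library (21.4 to 22.9). The intervals treat regions as independent and cover counting error only. The rule itself fixes these counts, so they were not tested.

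The counts depended on the lengths of the lists and on single libraries. With each list held to its 10241 highest scores, the length of the KO67 list, 1012 regions favoured the null and 1080 the wild type. Lists of equal length bring these counts near each other by construction, and 165 of the 252 were among the 1012. Of those 1012, 847 (83.7%) overlapped a region that was in all 4 lists as deposited, so that their wild-type regions were there but ranked lower. Of those 1080, 146 (13.5%) overlapped such a region. The number of null-favouring regions was 1369 without KO67, 354 without KO73, 170 without WT66 and 135 without WT74. The rule changes with the libraries left: without a null library it asks for presence in 1 list less, and without a wild-type library for absence from the other one.

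The null-favouring regions were short. Their median union width was 905 bp, from 512 to 3023 bp, against 1428.5 bp for all union regions and 1793 bp for those in all 4 lists. A width below 1000 bp was found in 170 of the 252 (67.5%), against 30.0% of all union regions and 5.17% of those in all 4. Within the null libraries the median covered length was 632 bp in KO67, with an interquartile range from 501 to 782 bp, and 772.5 bp in KO73, with one from 626 to 925.75 bp. The narrowest possible width of 501 bp was reached by 97 of the 252 in KO67 and by 61 in KO73. In both null libraries 35 of the 252 sat at it, against 68 of the 9520 regions in all 4 lists. Widths came in bands: the next width found after 501 bp was 626 bp in both null libraries, and 51 of the 252 in KO67 and 32 in KO73 measured from 626 to 650 bp. The bands were counted in the 252 only, so they are not shown to be particular to them. Only 11 of the 252 reached 1000 bp in both null libraries (4.37%), against 69.1% of the regions in all 4 lists. Wild-type-favouring regions had a larger median union width, 1236 bp, but those of them that were called in a null list were short there too. Their median covered length was 632 bp in KO67 (234 regions) and 678.5 bp in KO73 (1046 regions).

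**Figure D1:**
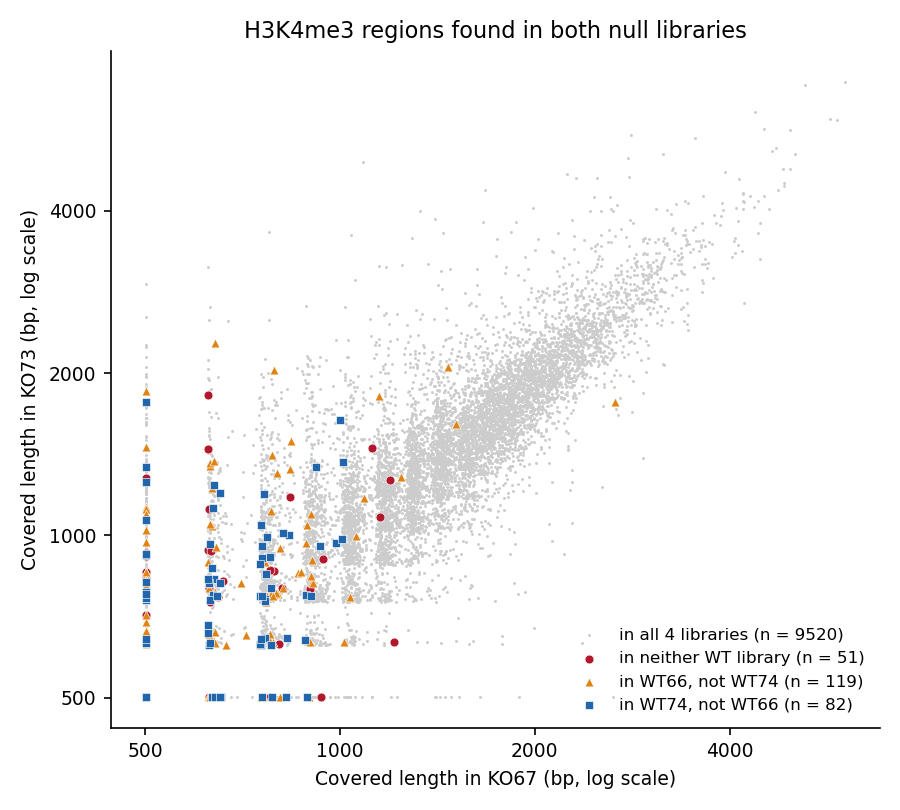
Covered length of each region in KO67 (x axis) and KO73 (y axis), both in bp on log scales. Grey points are the 9520 regions in all 4 lists and coloured points the 252 null-favouring regions, by the wild-type list that held them. The coloured points gather near the narrowest width of 501 bp, and 11 lie at 1000 bp or more on both axes.

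The merging makes the KO67 and KO73 regions of a null-favouring region overlap or touch, unless a wild-type region bridges them, and they overlapped directly in 251 of the 252. In 248 the overlap was at least 50% of the shorter of them. Nearly all of the 9520 regions in all 4 lists did likewise, with 9497 overlapping directly and 9463 by at least 50% of the shorter. The median distance between the KO67 and KO73 centres was 82.25 bp in the 252, close to the 79.25 bp of the regions in all 4 lists. In the 247 with a single overlapping region in each null library, the stretch that they shared had a median of 501 bp and ran from 107 to 1509 bp. KO73 was wider than KO67 in 146 of the 252 (57.9%), narrower in 71 and equal in 35, whereas KO73 was wider in 45.3% of the regions in all 4 lists. The order of widths was shared only in part. Spearman's rho between the covered lengths in KO67 and KO73 was 0.29 over the 252 and 0.82 over the regions in all 4 lists, as a description of points that share both libraries. The 252 span a smaller range of widths.

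Null-favouring regions lay low in the score ranking of both null lists. Their median percentile was 7.10 in KO67, with a highest value of 62.2, and 21.3 in KO73, with a highest value of 59.8. The regions in all 4 lists had medians of 53.4 and 60.4. Wild-type-favouring regions that were called in a null list lay low as well, with medians of 8.02 in KO67 and 15.6 in KO73. Below the 25th percentile were 241 of the 252 in KO67 (95.6%), 171 in KO73 (67.9%) and 168 in both (66.7%), and 8.67% of the regions in all 4 lists were below it in both. In steps of the score, the median was 77.5 in KO67, where the weakest region of the list had 62, and 24 in KO73, where the weakest had 14.

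**Figure D2:**
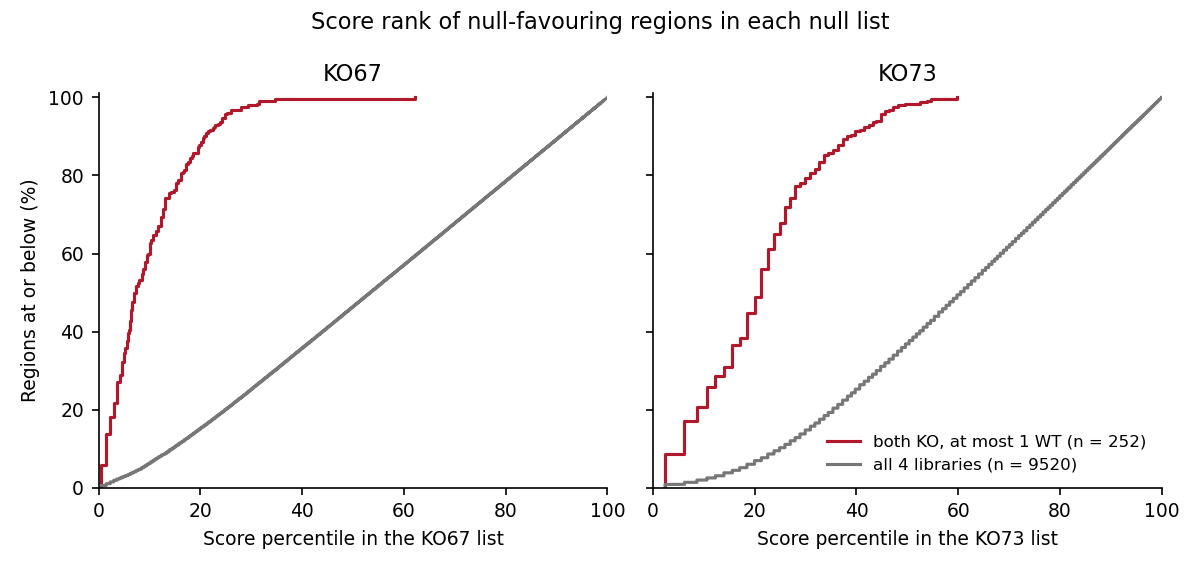
Cumulative share of regions (y axis, %) by score percentile in the KO67 list (left) and the KO73 list (right). The red line is the 252 null-favouring regions and the grey line the 9520 regions in all 4 lists. The red medians are at 7.10 and 21.3, the grey ones at 53.4 and 60.4.

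The share that lacked a wild-type library fell with the strength of the region in the null. Among regions of both null lists whose smaller null percentile was below 10, 166 of 855 lacked a wild-type library, 19.4% (95% exact interval 16.8 to 22.2). The share was 6.28% (4.83 to 7.99) from 10 to below 20, 2.21% (1.39 to 3.33) from 20 to below 30, and 0.297% (0.0614 to 0.866), or 3 of 1009, from 30 to below 40. There were 0 of 1037 from 40 to below 50, with an upper bound of 0.355%, and 0 of 4904 at 50 or more, with an upper bound of 0.0752%. Each region at or above the 40th percentile of both null lists was thus present in both wild-type lists. The intervals and bounds treat regions as independent and cover counting error only, not the spread between libraries. Binned likewise by the smaller wild-type percentile, the share of both-wild-type regions that lacked a null library fell from 80.1% over 60.3%, 38.1%, 24.2% and 15.3% to 4.17% at 50 or more, which was 266 of 6382 regions. Percentiles come from lists of different lengths, so the bins of the null and of the wild type do not stand for the same strength.

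**Figure D3:**
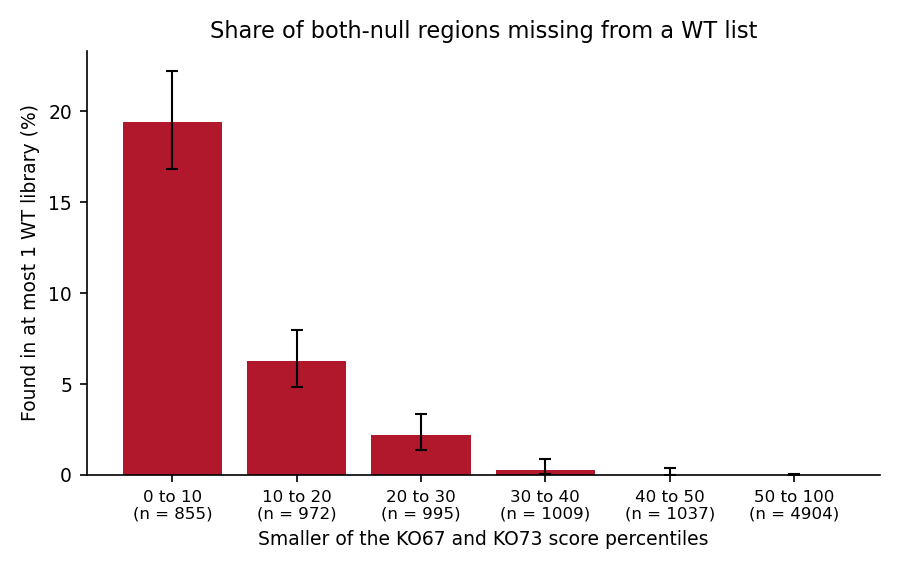
Share of regions in both null lists that were found in at most 1 wild-type list (y axis, %), by the smaller of their KO67 and KO73 score percentiles (x axis). Bars are shares, lines are 95% exact binomial intervals and n is the number of regions in both null lists. The share falls from 19.4% to 0 of 4904.

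The 51 regions in neither wild-type list were led by 3 that exceeded 1000 bp in both null libraries. The first, chr2:169458791-169460055, covered 1195 bp in KO67 and 1265 bp in KO73, with scores at percentiles 29.3 and 54.6. It stood alone, 171078 bp from the nearest union region. The second, chr4:100964789-100966239, covered 1122 and 1451 bp at percentiles 31.2 and 46.4, and its nearest WT66 and WT74 regions were 26713 and 26462 bp away. The third, chr1:173001914-173003107, covered 1154 and 1080 bp at percentiles 31.4 and 47.2. By the smaller null percentile, only the region of chromosome 3 described below ranked above these 3.

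The next 7 of the regions in neither wild-type list were shorter and weaker. They were chr13:74945311-74946339 (941 bp in KO67 and 902 bp in KO73), chr17:35974182-35975360 (836 and 1179 bp), chr12:3364965-3365938 (813 and 797 bp) and chr10:127962314-127963237 (898 and 794 bp). After these came chr10:43299002-43300025 (791 and 860 bp), chr11:95865796-95867153 (781 and 862 bp) and chr18:23910443-23911263 (659 and 821 bp). Their percentiles ran from 8.80 to 23.4 in KO67 and from 17.0 to 33.6 in KO73. Over all 51 the median covered length was 626 bp in KO67 and 761 bp in KO73, and the median percentile 5.71 and 19.96.

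The distance of the regions in neither wild-type list from wild-type regions varied widely. The gap to the nearer of the wild-type lists had a median of 25237 bp and ran from 292 to 1060331 bp. It was within 1000 bp in 2 of the 51, within 5000 bp in 5 and above 100000 bp in 10. Counted to any union region, 13.7% of the 51 had a neighbour within 5000 bp, beside 17.1% of all union regions and 12.1% of those in all 4 lists. When a wild-type region within 1000 bp was taken as present, 247 null-favouring regions and 49 in neither wild-type list were left.

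In the 201 regions in 1 wild-type list, the wild-type region mostly ranked low in its own list. In the 119 held by WT66 the wild-type region had a median covered length of 767 bp and a median percentile of 16.8, and in the 82 held by WT74 the medians were 656.5 bp and 17.2. Below the 25th percentile were 92 of the 119 (77.3%) and 59 of the 82 (72.0%), and 3 and 1 lay above the 50th. Wild-type-favouring regions also ranked low, with median percentiles of 23.7 in WT66 and 25.9 in WT74. Those of the regions in all 4 lists were 64.3 and 65.0. Of the 201, the wild-type region overlapped both null regions in 118 of the 119 and 79 of the 82. The merging joins regions that overlap or touch, so this overlap is largely built in. The null medians were 634 bp in KO67 and 778 bp in KO73 for the first set and 640 and 772.5 bp for the second, at median percentiles of 8.02 and 19.96 and of 9.12 and 21.3.

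Where 1 wild-type library held the region, the null regions were not generally wider than it. Both null widths exceeded that of WT66 in 23 of 119 (19.3%) and fell short of it in 43 (36.1%), with 53 between or equal. Over the regions in all 4 lists these shares were 9.49% and 70.5%. Against WT74, both null widths were larger in 21 of 82 (25.6%) and smaller in 24 (29.3%), with 37 between or equal, beside 17.3% and 55.9% in all 4 lists. The rule used the same contrast, so these shares are given without a test.

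The widest of these, chr3:96303527-96306191, was also the strongest of the 252 by its smaller null percentile. It covered 2665 bp in KO67, 1764 bp in KO73 and 631 bp in WT66, and no WT74 region lay within 10413 bp of it. Its score was at percentile 62.2 in KO67, 38.2 in KO73 and 11.8 in WT66. Both null libraries lay above WT66 in width.

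Among the other 9 of the 10 widest regions in 1 wild-type list, the order of the genotypes was mixed. The first 7 of them passed a covered length of 1000 bp in both null libraries. A covered length sums the regions of a library and need not be 1 region. Of the 252, 3 had 2 or more regions in KO67 and 2 had them in KO73. The region chr2:112332413-112334184 covered 1701 bp in WT66, 1509 bp in KO67 and 1607 bp in KO73, and chr18:24363416-24365531 covered 1873, 1470 and 2054 bp in the same order. For chr5:74463751-74465126 the lengths were 1260, 1244 and 1282 bp, and for chr10:83184580-83186386 they were 1237, 1088 and 1174 bp. In chr8:28087011-28089249 the covered lengths in the null libraries, 1149 and 1816 bp, exceeded the 855 bp of WT66. Its score was at percentile 6.63 in KO67. Of the regions held by WT74, chr2:122194010-122195717 covered 1138 bp there, 1011 bp in KO67 and 1370 bp in KO73, and chr17:35958612-35960846 covered 1816, 1002 and 1635 bp. The score of the region on chromosome 17 was at percentile 5.21 in KO67. The last of the 10 were chr8:46712549-46713671, with 940 bp in WT66, 1060 bp in KO67 and 997 bp in KO73, and chr5:110425112-110426131, with 781 bp in WT74, 1009 bp in KO67 and 983 bp in KO73. In both of these the null widths exceeded the wild-type one.

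**Figure D4:**
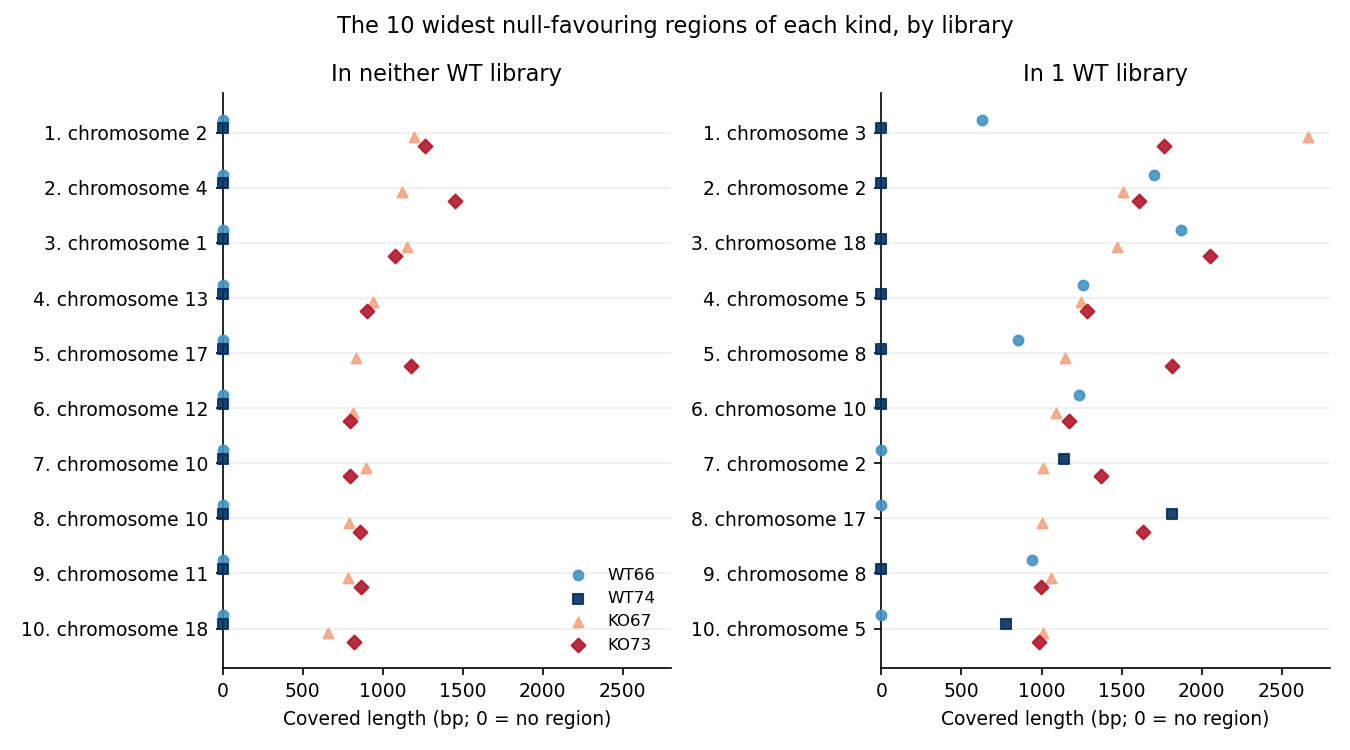
Covered length (x axis, bp) in each library for the 10 regions in neither wild-type list (left) and the 10 in 1 wild-type list (right) with the largest smaller null width. A point at 0 means that the list had no region there, and points are shifted vertically so that libraries do not hide each other. In chromosome 3, the first on the right, the 2665 and 1764 bp of the null libraries stand above the 631 bp of WT66.

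At the edge of the rule were regions of the narrowest width. A covered length of 501 bp in a null library was found in 123 of the 252, and in a wild-type library in 183 of the 9520 regions in all 4 lists. The first count is over null libraries and the second over wild-type ones, so they are not a like-for-like comparison. Just inside, chr1:190478273-190479098 had 501 bp in each null library, at percentiles 0.527 and 6.19, and 776 bp in WT66. In chr17:34087968-34088744, chr18:4352729-4353862, chr2:37648181-37649208 and chr4:45096896-45097858, KO67 likewise had 501 bp at percentile 0.527, and WT74 had from 631 to 1084 bp. Others of the 252 tied with these in KO67, so they are examples. Of the tied regions, chr4:149422471-149423362 was in neither wild-type list, and chr8:91151099-91152020 had only 501 bp in WT74. Just outside, chr12:12947950-12948785 had 501 bp in each of the 4 libraries. In chr1:58770063-58770713, chr10:10277441-10278237, chr12:85957676-85959131 and chr12:110073514-110074795 WT66 had 501 bp at percentile 1.59, and WT74 had from 626 to 845 bp.

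With the regions below the 25th score percentile of each list dropped, 108 regions favoured the null, and only 8 of the 252 were among them (3.17%). The cut also removed wild-type regions, with lowest scores kept of 43.7 in WT66 and 40.4 in WT74, so that other regions could newly meet the rule. These 8 are the ones at or above the 25th percentile in both null lists, so the score cut keeps them by definition. They also met the rule under each of the other list settings: merging within 500 bp, a coverage of at least 250 bp, lists of one length and a wild-type distance of 1000 bp. Those settings kept 251, 252, 165 and 247 of the 252 in the same order, so most of them hardly set the 8 apart. They comprise the 3 regions in neither wild-type list that passed 1000 bp, on chromosomes 2, 4 and 1. The other 5 were the regions described on chromosome 3, on chromosome 2 at 112332413 and 122194010, and on chromosome 10 at 83184580, and the region chr10:127759316-127760365, which covered 1038 bp in WT66, 1037 bp in KO67 and 768 bp in KO73.

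Null-favouring regions were spread over the genome. Each of the 19 autosomes held from 6 to 25 of them, and each held at least 1 in neither wild-type list. As a share of the regions in both null lists, they ran from 1.72% on chromosome 11 to 3.70% on chromosome 10 (95% exact interval 2.24 to 5.71), and the pooled 2.58% lay inside the interval of each of the 19 chromosomes. At these counts the intervals are wide, and they treat regions as independent. The pooled share includes each chromosome itself, so its place inside the intervals does not show an even spread. On chromosome 14, where 38.0% of the regions of both wild-type lists lacked a null library, 2.26% of the regions of both null lists lacked a wild-type one. Wild-type-favouring regions outnumbered null-favouring ones 26.5 to 1 there and 7.28 to 1 on chromosome 2.

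A smaller share of null-favouring than of wild-type-favouring regions had a close neighbour. The median gap to the nearest union region was 28618 bp, against 24913 bp over all union regions and 22972.5 bp for wild-type-favouring ones. A neighbour within 2000 bp was found for 14 of the 252 (5.56%), against 9.73% of all union regions, 13.9% of wild-type-favouring ones and 4.71% of those in all 4 lists. The nearest neighbour was a region in all 4 lists for 156 of them (61.9%, against 58.5% over all) and another null-favouring region for 6 (2.38%, against 1.53%). These differences in position were not tested.

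**Figure D5:**
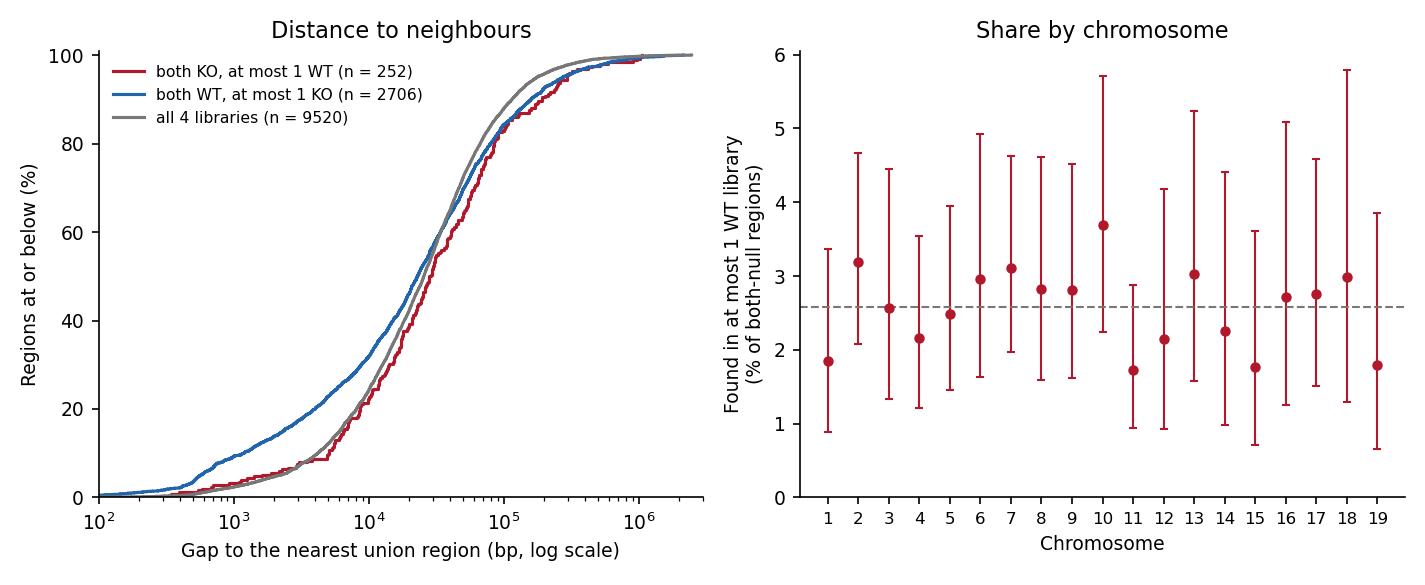
Left: cumulative share of regions (y axis, %) by the gap to the nearest union region (x axis, bp, log scale) for null-favouring regions (red), wild-type-favouring regions (blue) and regions in all 4 lists (grey). The blue line starts higher, with 13.9% within 2000 bp against 5.56% of the red. Right: share of regions in both null lists found in at most 1 wild-type list (y axis, %) by chromosome, with 95% exact binomial intervals and a dashed line at the pooled 2.58%.

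A few null-favouring regions lay near each other or far from any other, and those below were chosen after their values were seen. Of the 226 windows of 1 Mb that held any, 205 held 1, 18 held 2 and 3 held 3 or more. The windows with the most were on chromosome 10 from 127000000 bp, with 4 of 29 union regions, and on chromosome 17 from 35000000 bp, with 4 of 37. On chromosome 1, 3 of them lay between 172974452 and 173011196. The first covered 819 bp in WT66, 900 bp in KO67 and 633 bp in KO73. The region in the middle is the third of those in neither wild-type list, and the last covered 1483 bp in WT74, 756 bp in KO67 and 1047 bp in KO73. Between them stood a region of all 4 lists, with 1123 and 1002 bp in wild type and 1062 and 1881 bp in the null libraries, and a region of 501 bp in KO73. On chromosome 17, the fifth of the regions in neither wild-type list lay 13335 bp from the one held by WT74 at 35958612. At the other extreme, chr9:38525815-38526363, with 501 bp in each null library, was 1060331 bp from the nearest other region. It was followed by chr9:9238443-9239328, with 886 bp in WT66, 629 bp in KO67 and 501 bp in KO73, at 1015379 bp, and chr15:50720635-50721500, with 501 and 856 bp in the null libraries, at 974551 bp.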

How the data were processed

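H3K4me3 ChIP-seq region lists of 4 libraries were used, 1 BED table per library. Bowtie, HOMER and genome build mm9 are named per the submitters' processing notes. For versions, settings, filters and the use of inputs: not given in the sources used here. Scores are the authors' deposited values, have no stated scale and served as ranks inside 1 list. Score steps were read as the largest step of which all scores below 100 are multiples within 0.055. Starts were converted to count from 1. Percentiles, list lengths and the merging used chromosomes 1 to 19 only. A covered length is the sum of a library's regions in a union region. The members and lists were chosen with earlier results of these data known. Presence, width and score were used by the rule or come from the same contrast, so no test between genotypes was run. Named regions were the 10 in neither and the 10 in 1 wild-type list with the largest smaller null width, the 5 with the highest smaller null percentile, and 5 each just inside and outside the rule, by smallest width and then percentile. Those just inside are examples, since further regions tied with them. Gene lists, GC content, motifs and transcription starts had been planned for the case of an mm9 genome and were not analysed here. Merging and classing were tested on simulated lists with known presence. Python 3.11.15, pandas 2.3.3 and scipy 1.17.1 were used. Alternatives were another merging distance, coverage minimum, score threshold, list length and wild-type distance, and leaving out each library.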

Additional observations from a re-analysis of the deposited data

How the results depend on the processing

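Merging regions within 500 bp, a coverage of at least 250 bp and a wild-type distance of 1000 bp left each count that was recomputed within 1.5 times its reported value. The null medians, recomputed under the first and second of these, moved by less than the SD between the null libraries. The 250 bp minimum could not change anything, since no region is narrower than 501 bp. Without the regions below the 25th score percentile of each list, null-favouring regions numbered 108, of which 20 were in neither wild-type list. Only 8 of the 252 were among these 108. The median covered length of the 108 was 1046 bp in both null libraries and their median percentiles 28.6 in KO67 and 36.3 in KO73. With lists of one length there were 1012, of which 472 were in neither wild-type list, 1080 wild-type-favouring regions and a median covered length of 772 bp in KO67. Over the settings that left out WT66, WT74, KO67 or KO73, null-favouring regions ran from 135 to 1369, those in neither wild-type list from 89 to 652 and wild-type-favouring ones from 1662 to 4475. Part of this follows from the rule, which asks less with 1 null library and more with 1 wild-type library. No paired analysis was possible because no test was run and the genotypes share no label number. The absolute depth is unknown, and its part in which weak regions were called was not tested.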

Other observations

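The sex chromosomes were outside the rule. By the same rule on the X chromosome, 20 of the 236 regions in both null lists lacked a wild-type library, 8.47% (95% exact binomial interval 5.25 to 12.8), of which 7 were in neither and 13 in 1 wild-type list. Their median covered length was 564.5 bp in KO67 and 683.5 bp in KO73. Of the 325 X regions in both wild-type lists, 109 lacked a null library. On the autosomes, 2.58% of the regions in both null lists lacked a wild-type library. There, 2706 of the 12226 regions in both wild-type lists (22.1%) lacked a null library. The share on X was thus the larger in both directions. On the Y chromosome 1 of 7 regions in both null lists lacked a wild-type library, with 860 bp in KO67 and 501 bp in KO73. Neither share on X was tested against the autosomes, and the score ranks of X regions were not examined.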
